A study of Mus musculus with 30 samples.

Results

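Synaptic vesicle and release genes encode the machinery with which a neuron stores neurotransmitter in vesicles and releases it when calcium enters the nerve terminal. The set held 38 genes chosen by name: membrane proteins of the vesicle, synapsins, the SNARE proteins that fuse vesicle and plasma membrane, calcium sensors and complexins, proteins of the active zone, proteins that retrieve vesicles after fusion, and vesicular glutamate transporters. Each gene was read from the probe set that names it alone and, where there were several, from the one with the highest mean over all arrays. That gave 37 of the 38 members among 19938 genes in all. The probe set of Vamp2 names more than 1 gene, so Vamp2 is not analysed here.

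The 30 mouse arrays measured total RNA from brain tumors and from normal brain. Tumors followed injection of a construct in which the GFAP, SYN1 or NES promoter drives CRE recombinase, and each is named here by that promoter and the region injected. There were 4 GFAP and 4 SYN1 tumors of the cortex, 7 GFAP and 4 NES tumors of the hippocampus, and 3 GFAP tumors of the subventricular zone (SVZ), beside 4 arrays each of normal cortex and normal hippocampus, for which the labels name no construct. The labels give no strain, age, sex or tumor-causing lesion, nor whether each array of a group is another animal, and the p-values then reflect variation among these arrays alone, part or all of which may be technical. GFAP is an astrocyte gene, NES a gene of neural progenitors, and SYN1, known as Syn1 in the mouse, is a neuronal gene and itself a member of the set.

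In brain, these genes work together at the presynaptic terminal. Synapsins tether vesicles in a reserve pool, the active zone proteins dock and prime them, SNAP-25, syntaxin 1 and synaptobrevin form the fusion complex, and synaptotagmins trigger fusion upon calcium entry. Most of these genes are expressed in neurons and at most weakly in glia. In bulk tissue, fewer neurons and less RNA per neuron cannot be told apart.

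All values are the deposited log2 signal, so a difference of 1 is a doubling, and signal includes background, which can compress the differences of dim genes. Each difference is tumor minus normal with the standard error (SE) of a limma fit over all arrays. A member was called where its Benjamini-Hochberg adjusted p over all 19938 genes was under 0.05. GFAP cortex tumor 1 and GFAP hippocampus tumors 5, 6 and 7 stood apart from the other arrays in an earlier analysis of these data. Over all genes, GFAP cortex tumor 1 had an interquartile range of 1.88 and a mean correlation of 0.868 with the rest of its group. The ranges of GFAP hippocampus tumors 5 to 7 were 2.18 to 2.40, and the lowest among the remaining arrays was 2.45. Their mean correlations with the rest of their group were 0.889, 0.941 and 0.938. Those of GFAP hippocampus tumors 1 to 4 were 0.93 to 0.948, so tumors 6 and 7 did not stand out by this measure. For members called against normal tissue, the value without these 4 arrays follows where the call ended or the value moved by over 1.5 times. The labels of normal tissue matched their markers. The mean of 8 cortex markers was 10.14 to 10.34 in normal cortex and 9.22 to 9.40 in normal hippocampus. The mean of 10 hippocampus markers was 7.92 to 8.13 and 9.58 to 9.98. In tumors the ranges of the 2 regions overlapped, so the region of a tumor rests on its label. Hippocampus markers had 7.18 to 8.25 in GFAP cortex and 7.11 to 7.79 in SYN1 tumors. They had 7.11 to 7.77 in GFAP hippocampus and 7.71 to 8.33 in NES tumors. Cortex markers had 6.83 to 8.75, 7.05 to 7.45, 6.81 to 8.49 and 7.67 to 8.92 in the same order.

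Promoters are shown for 3 members on which later results turn: Syn1, whose promoter gives 1 of the constructs its name, Slc17a7, which had the largest difference in SVZ tumors, and Unc13a, which fell also in NES tumors. RefSeq (GRCm38.p6) had promoter windows for 28 of the 38 members, 39 windows in all. Each sequence gives the 250 bases before an annotated start, 5′ to 3′ on the strand of the gene. Capitals mark matches, on either strand, to TTCAGCACC and GGACAG, the left arm and the core of the right arm of the RE1 element bound by the repressor REST, and to TGACGTCA and its shorter core TGACG, the cyclic AMP response element.
Syn1: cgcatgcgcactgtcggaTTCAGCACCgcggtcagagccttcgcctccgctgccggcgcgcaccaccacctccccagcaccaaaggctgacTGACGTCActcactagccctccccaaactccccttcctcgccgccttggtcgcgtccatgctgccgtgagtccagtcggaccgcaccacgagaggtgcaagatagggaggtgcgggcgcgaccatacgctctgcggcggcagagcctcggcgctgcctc
Slc17a7: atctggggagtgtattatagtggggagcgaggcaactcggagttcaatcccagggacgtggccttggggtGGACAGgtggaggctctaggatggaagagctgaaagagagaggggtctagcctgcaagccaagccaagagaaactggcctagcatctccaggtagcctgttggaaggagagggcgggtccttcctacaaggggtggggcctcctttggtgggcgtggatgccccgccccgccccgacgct
Unc13a: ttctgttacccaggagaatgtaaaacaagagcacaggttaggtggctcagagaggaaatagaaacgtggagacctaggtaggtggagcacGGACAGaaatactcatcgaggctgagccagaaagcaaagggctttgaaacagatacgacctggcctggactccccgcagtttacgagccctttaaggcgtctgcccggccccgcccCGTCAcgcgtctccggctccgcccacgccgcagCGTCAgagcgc

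The Syn1 window lies at chrX:20920919-20921168 on the minus strand, directly upstream of the gene. It held TTCAGCACC at positions -232 to -224, counting the base before the start as -1, and TGACGTCA at -159 to -152, which contains TGACG on both strands. No other of the 28 members with a window held either sequence. Over all 32851 RefSeq promoter windows of this length, 0.301% held TTCAGCACC and 1.55% held TGACGTCA. The Slc17a7 window at chr7:45163671-45163920 held GGACAG at -180 to -175. The Unc13a window at chr8:71671758-71672007 on the minus strand held it at -160 to -155, with TGACG on the opposite strand at -44 to -40 and at -11 to -7. The 6-base GGACAG was found in 23.1% of the members' windows and in 18.7% of all windows, and TGACG in 15.4% and 17.8%. These letters are matches in a window and not measured binding sites.

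Most members fell in tumors of 4 of the 5 groups. In GFAP cortex tumors 32 of 37 were lower than in normal cortex and none was higher, beside 18.8% of all genes called lower. The median difference over the members was -2.12, and over all genes -0.10. SYN1 cortex tumors had 32 lower and 0 higher (20.5% of all genes lower), with a median of -2.78 against -0.04. In GFAP hippocampus tumors 30 members were lower than in normal hippocampus and 0 higher (25.2% of all genes lower), and the medians were -1.90 and -0.08. NES hippocampus tumors had few calls: 3 members were lower (2.86% of all genes) and 1 was higher (5.69% of all genes), although the median was -0.88 and 31 of 37 differences lay below 0. With arrays centred on their medians, the NES calls were 6 lower and 0 higher, and those of all genes 1461 lower and 955 higher in place of 571 and 1135. For SVZ tumors, which have no normal tissue of their own here, the comparison was with the mean of both normal tissues: 35 members were lower and 0 higher (21.4% of all genes lower), with a median of -2.52 against -0.00. Comparisons within a region share their normal arrays, and the SVZ comparison shares both sets, so they are not independent of each other.

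**Figure D1:**
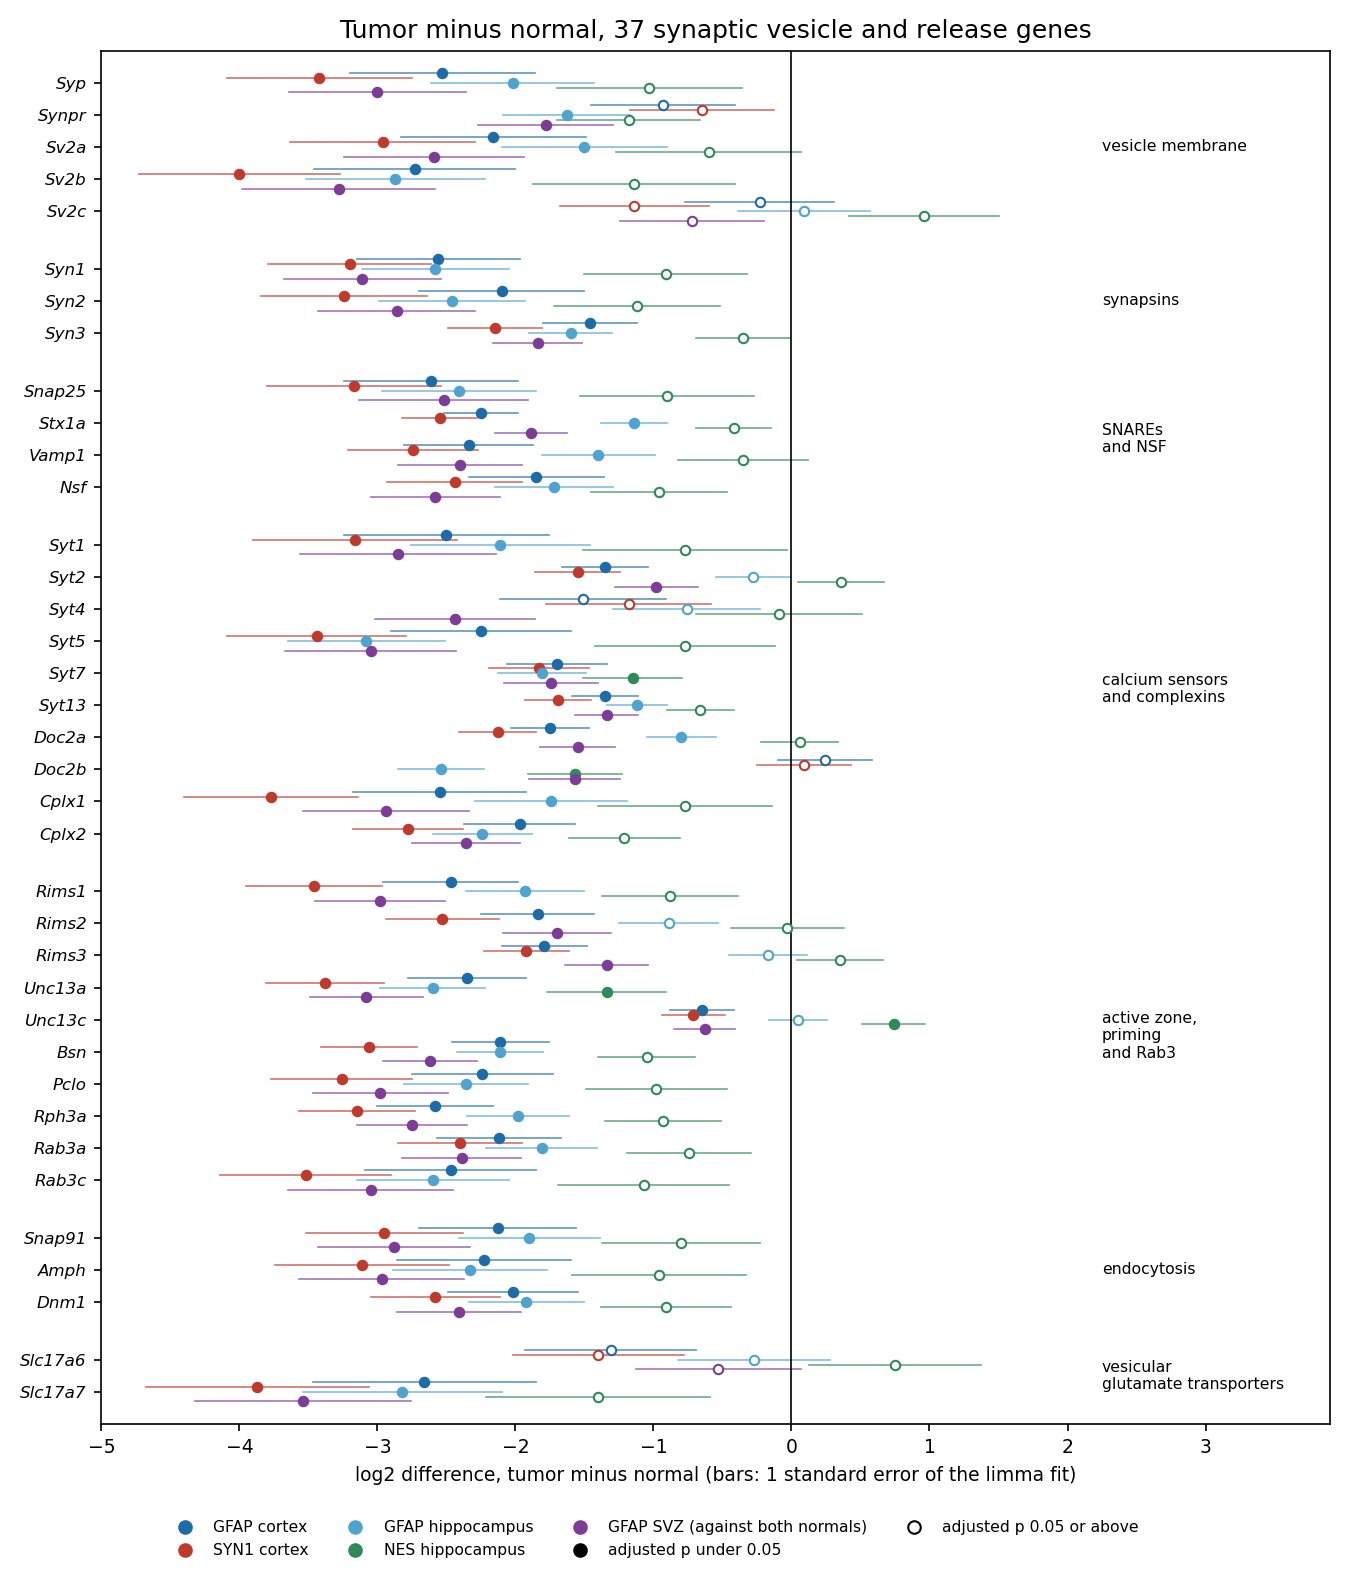
Log2 difference, tumor minus normal, for the 37 measured members grouped by role. Each point is 1 comparison with bars of 1 SE, filled where adjusted p was under 0.05. Points of the GFAP, SYN1 and SVZ groups lie mostly between -1 and -4, and those of NES tumors mostly between 0 and -1.5.

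The arrays of tumor and normal tissue were also compared without a test. All 4 GFAP cortex tumors lay below all 4 normal cortex arrays for 32 members (23.9% of all genes), and all SYN1 tumors for 32 (25.9%). All 7 GFAP hippocampus tumors were below normal hippocampus for 25 members (17.8%), all NES tumors for 18 (11.0%) and all SVZ tumors below both normal tissues for 33 (23.2%). Without the 4 arrays that stand apart, 30 members were lower in GFAP cortex tumors (20.5% of all genes), with a median of -1.34, and 31 in GFAP hippocampus tumors (26.4%). Of the 32 members called in GFAP cortex tumors, 14 moved by over 1.5 times, all towards 0, and in the 4 other comparisons with normal tissue 0 did. NES tumors, none of which was left out, then had 9 lower members (8.20%) and 1 higher. The 9 were Bsn, Cplx2, Dnm1, Doc2b, Nsf, Synpr, Syt13, Syt7 and Unc13a.

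Markers of neurons other than synaptic vesicle genes moved with the members. Of 18 such markers, 14 fell in GFAP cortex tumors, 15 in SYN1 tumors, 14 in GFAP hippocampus tumors, where Gap43 rose, 0 in NES tumors and 15 in SVZ tumors. Their mean level was 11.34 to 11.56 in normal cortex, 8.16 to 10.57 in GFAP cortex tumors and 8.49 to 9.47 in SYN1 tumors. It was 11.01 to 11.29 in normal hippocampus, 9.23 to 10.41 in GFAP hippocampus tumors, 10.06 to 11.14 in NES tumors and 8.86 to 9.77 in SVZ tumors. Markers of other brain cells were also lower in some groups. Of 9 oligodendrocyte markers 8 fell in GFAP cortex, 9 in SYN1, 3 in GFAP hippocampus, 0 in NES and 8 in SVZ tumors, and of 10 astrocyte markers 2, 6, 0, 0 and 6 fell, with Aldh1l1 higher in GFAP hippocampus tumors. Of all genes 18.8%, 20.5%, 25.2%, 2.86% and 21.4% were called lower in these groups. The 2 astrocyte markers in GFAP cortex and the 3 oligodendrocyte markers in GFAP hippocampus tumors were near those shares. The mean oligodendrocyte level was 10.50 to 10.82 in normal cortex and 10.52 to 10.85 in normal hippocampus, and 7.18 to 10 in GFAP cortex, 7.76 to 9.05 in SYN1, 8.64 to 10.59 in GFAP hippocampus, 9.61 to 10.74 in NES and 8.02 to 9.16 in SVZ tumors. The mean astrocyte level was 10.67 to 11.03 in normal tissue, and 7.79 to 10.96, 9.06 to 10.05, 9.50 to 11.61, 10.59 to 11.41 and 9.24 to 10.38 in these tumor groups. The part of these markers in the fall of the members was not tested.

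Among the vesicle membrane proteins, synaptophysin (Syp), a membrane-spanning marker of synaptic vesicles, fell by 2.53 ± 0.67 in GFAP cortex tumors (adjusted p = 0.00611, and -1.58 without tumor 1), and by 3.42 ± 0.67 in SYN1 tumors (adjusted p = 0.000197). The SV2 proteins are vesicle glycoproteins, and SV2A is the binding site of the drug levetiracetam. Sv2a fell by 2.16 ± 0.67 and 2.96 ± 0.67 in the same groups (adjusted p = 0.0174 and 0.000895). Without GFAP cortex tumor 1 and the other arrays that stand apart, the GFAP cortex value of Sv2a was -1.20 and not called (adjusted p = 0.0633). In GFAP hippocampus tumors Sv2a had its smallest called difference, -1.50 ± 0.60 (adjusted p = 0.0467), with arrays that overlapped those of normal hippocampus.

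Sv2b, the family member typical of cortical and hippocampal excitatory neurons, had the largest difference of any member in SYN1 tumors and, with all arrays, in GFAP cortex tumors. Normal cortex arrays 1 to 4 had 12.90, 12.64, 12.68 and 12.68. GFAP cortex tumors had 6.75, 11.58, 10.90 and 10.77, and SYN1 tumors 8.25, 9.42, 8.21 and 9.03. All 8 tumors were below all normal arrays, and GFAP cortex tumor 1 was far below the other 3. The difference was -2.73 ± 0.73 in GFAP tumors (adjusted p = 0.00671), and -1.64 without tumor 1, when Stx1a had the largest at -2.15. It was -4.00 ± 0.73 in SYN1 tumors (adjusted p = 9.4e-05). Normal hippocampus had 12.49, 12.12, 12.60 and 12.44, GFAP hippocampus tumors 8.02 to 11.28 with a median of 9.45, and NES tumors 9.99, 11.55, 11.91 and 11.64. GFAP tumors fell by 2.87 ± 0.65 (adjusted p = 0.000995), while the NES value of -1.14 ± 0.73 was not called (adjusted p = 0.387), though all 4 NES tumors were below all normal arrays. SVZ tumors had 8.79, 8.54 and 10.54, a difference of -3.28 ± 0.70 (adjusted p = 0.000512).

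Sv2c, the SV2 protein enriched in the basal ganglia, was called in none of these comparisons with all arrays. Its values were 8.44, 8.82, 9.26 and 8.84 in normal cortex, 6.51, 9.64, 8.89 and 9.41 in GFAP cortex tumors and 8.45, 7.52, 6.82 and 8.0 in SYN1 tumors. Normal hippocampus had 8.67, 8.44, 8.31 and 8.29, GFAP hippocampus tumors 7.67 to 9.86 with a median of 8.43, NES tumors 8.32, 9.59, 10.40 and 9.22, and SVZ tumors 7.72, 7.59 and 8.43. Tumor and normal arrays overlapped in every group. The differences ran from -1.14 ± 0.54 in SYN1 tumors (adjusted p = 0.101, and 0.0288 without the 4 arrays that stand apart) to 0.96 ± 0.54 in NES tumors (adjusted p = 0.314). Synaptoporin (Synpr), a synaptophysin relative of hippocampal mossy fibres, fell by 1.63 ± 0.46 in GFAP hippocampus tumors (adjusted p = 0.00581) and by 1.78 ± 0.49 in SVZ tumors (adjusted p = 0.00523). GFAP hippocampus tumor 5, at 9.73, lay within the normal hippocampus range of 9.22 to 9.99. In GFAP cortex tumors Synpr had -0.93 ± 0.52 and in SYN1 tumors -0.65 ± 0.52, neither of which was called.

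All 3 synapsins, phosphoproteins that hold vesicles in the reserve pool, fell in each group other than NES. Syn1 had 12.78, 12.63, 12.60 and 12.52 in normal cortex. GFAP cortex tumors had 7.40, 11.43, 10.79 and 10.67, and SYN1 tumors 9.29, 9.75, 9.14 and 9.54. The gene whose promoter drove CRE in the SYN1 tumors was thus below every normal array in each of those tumors, by 3.20 ± 0.59 on average (adjusted p = 0.000107), and in GFAP tumors it fell by 2.56 ± 0.59 (adjusted p = 0.00239), with -1.67 without tumor 1. In hippocampus the normal arrays had 12.10, 12.18, 12.41 and 12.24, GFAP tumors 8.46 to 10.64 with a median of 9.82, NES tumors 10.28, 11.50, 11.80 and 11.71, and SVZ tumors 8.48, 9.04 and 10.44. No tumor array reached the lowest normal array. The difference was -2.58 ± 0.53 in GFAP hippocampus tumors (adjusted p = 0.000373), -3.11 ± 0.57 in SVZ tumors (adjusted p = 0.000102) and -0.91 ± 0.59 in NES tumors (adjusted p = 0.394).

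**Figure D2:**
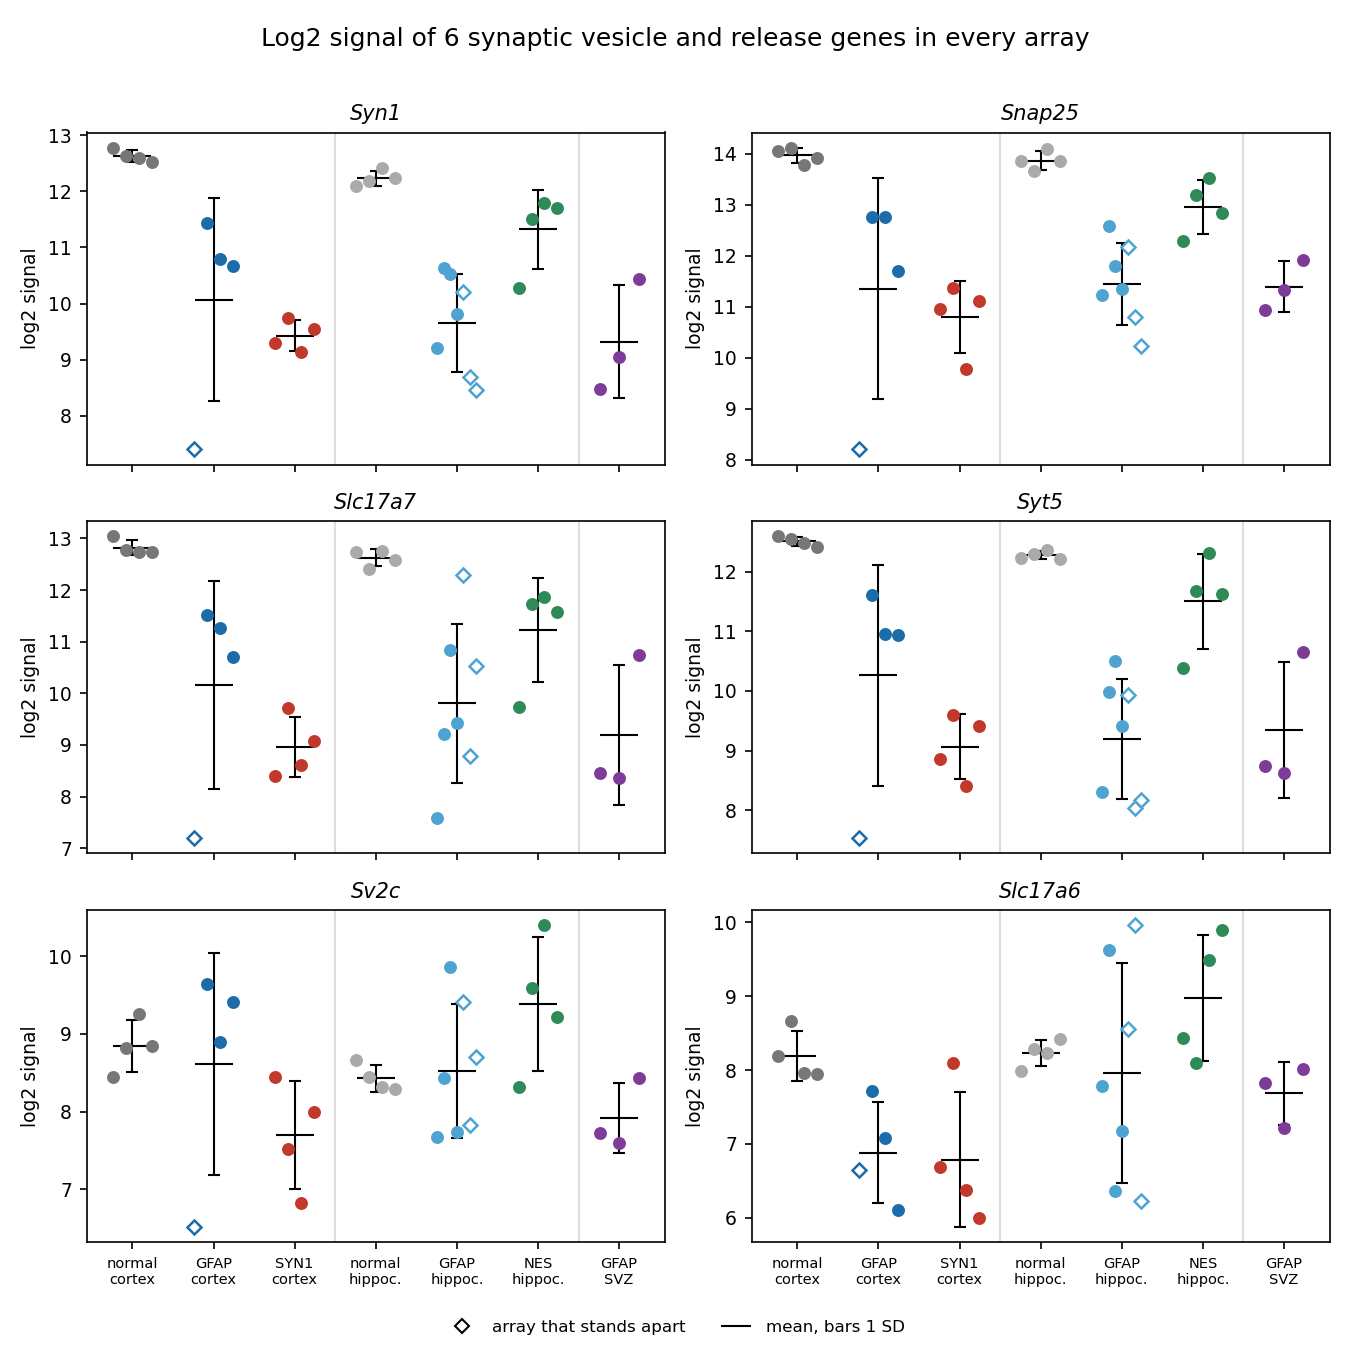
Log2 signal of Syn1, Snap25, Slc17a7, Syt5, Sv2c and Slc17a6 in each of the 30 arrays by group, with group mean and 1 SD and open diamonds for the 4 arrays that stand apart. For Syn1 the normal arrays lie from 12.10 to 12.78 and every tumor lies below them, while for Sv2c tumor and normal arrays overlap.

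Syn3, the synapsin with the smallest differences of the 3, had 10.03, 9.93, 10.01 and 9.84 in normal cortex. GFAP cortex tumors had 7.21, 9.43, 8.82 and 8.50, and SYN1 tumors 7.83, 8.21, 7.54 and 7.61. Normal hippocampus had 9.74, 9.50, 9.79 and 9.51, GFAP tumors 7.41 to 8.75 with a median of 8.09, NES tumors 8.61, 9.08, 10.06 and 9.38, and SVZ tumors 7.92, 7.67 and 8.28. Only NES tumors overlapped normal tissue: NES tumor 3 was above all 4 normal hippocampus arrays. The falls were 1.46 ± 0.34 in GFAP cortex, 2.15 ± 0.34 in SYN1, 1.60 ± 0.30 in GFAP hippocampus and 1.84 ± 0.32 in SVZ tumors, with adjusted p of 0.00218 or less. Syn2 fell by between 2.10 ± 0.60 (GFAP cortex) and 3.24 ± 0.60 (SYN1) in the same 4 comparisons, and had -1.19 in GFAP cortex tumors without tumor 1.

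The measured SNARE genes and Nsf, the ATPase that takes spent SNARE complexes apart, fell in all 4 non-NES groups. Snap25, the plasma membrane SNARE of neurons, had 14.05, 14.12, 13.78 and 13.92 in normal cortex, 8.20, 12.76, 12.76 and 11.70 in GFAP cortex tumors and 10.95, 11.36, 9.77 and 11.11 in SYN1 tumors. It fell by 2.61 ± 0.63 (adjusted p = 0.0033, and -1.56 without GFAP tumor 1) and 3.17 ± 0.63 (adjusted p = 0.000244). In hippocampus it fell by 2.41 ± 0.56 in GFAP tumors (adjusted p = 0.00129), and NES tumors had -0.90 ± 0.63 (adjusted p = 0.436) with all 4 arrays below normal. Vamp1, the synaptobrevin of fast-firing and motor neurons, fell by 2.34 ± 0.47 in GFAP cortex tumors and by 2.74 ± 0.47 in SYN1 tumors, and Nsf by 1.85 ± 0.49 and 2.44 ± 0.49, with -1.23 in GFAP cortex tumors without tumor 1.

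Synaptotagmin 1 (Syt1), the calcium sensor of fast synchronous release, had differences of -2.5 ± 0.74 in GFAP cortex tumors (adjusted p = 0.012, and -1.31 without tumor 1), -3.16 ± 0.74 in SYN1 tumors (adjusted p = 0.00109) and -2.11 ± 0.65 in GFAP hippocampus tumors (adjusted p = 0.0113). Syt2, its counterpart in brain stem and inhibitory neurons, fell by 1.35 ± 0.31 and 1.55 ± 0.31 in the cortex groups and had -0.28 ± 0.27 in GFAP hippocampus tumors (adjusted p = 0.426). Syt4, which lacks a residue for calcium binding in its first calcium domain, was not called in either cortex group or in hippocampus. Its 4 SYN1 tumors spread widely, at 11.02, 9.52, 8.03 and 10.13, against 10.74 to 11.04 in normal cortex. In SVZ tumors Syt4 fell by 2.44 ± 0.58 (adjusted p = 0.00127).

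Syt5, a vesicle synaptotagmin close to Syt1, had the largest difference of any member in GFAP hippocampus tumors with all arrays. Normal hippocampus had 12.23, 12.29, 12.36 and 12.22, and the GFAP tumors 8.04 to 10.51 with a median of 9.42. NES tumors had 10.39, 11.67, 12.31 and 11.63, so that NES tumor 3 lay among the normal arrays. The difference was -3.08 ± 0.57 in GFAP tumors (adjusted p = 0.000143), and -2.72 without tumors 5 to 7, when Slc17a7 had the largest at -3.36. It was -0.77 ± 0.65 in NES tumors (adjusted p = 0.525). Normal cortex had 12.59, 12.55, 12.48 and 12.42, GFAP cortex tumors 7.53, 11.61, 10.96 and 10.94, SYN1 tumors 8.86, 9.59, 8.40 and 9.42, and SVZ tumors 8.74, 8.63 and 10.66. All tumors of these 3 groups were below normal tissue, with differences of -2.25 ± 0.65, -3.44 ± 0.65 and -3.05 ± 0.62 (adjusted p = 0.0105, 0.000124 and 0.000307). Without tumor 1 the GFAP cortex value was -1.34. Syt7, a high-affinity sensor of slow and asynchronous release, was called in NES tumors too: the fall was 1.15 ± 0.36 there (adjusted p = 0.0414), a call kept in 10 of 16 alternative settings, and the GFAP hippocampus difference was -1.81 ± 0.32 (adjusted p = 6.99e-05). Syt13, a synaptotagmin without calcium binding, fell by between 1.12 ± 0.22 in GFAP hippocampus tumors and 1.69 ± 0.24 in SYN1 tumors.

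Complexins clamp the assembled SNARE complex and promote its firing. Cplx1 fell by 2.55 ± 0.63 in GFAP cortex, 3.77 ± 0.63 in SYN1, 1.74 ± 0.55 in GFAP hippocampus and 2.94 ± 0.60 in SVZ tumors, and Cplx2 had -1.97 ± 0.40, -2.78 ± 0.40, -2.24 ± 0.36 and -2.36 ± 0.39, all called. Doc2 proteins are soluble calcium sensors of spontaneous release. Doc2a had 9.57, 9.31, 9.07 and 9.30 in normal cortex, 6.77, 8.21, 7.39 and 7.86 in GFAP cortex tumors and 7.05, 7.49, 6.98 and 7.22 in SYN1 tumors. It fell by 1.75 ± 0.28 (adjusted p = 9.75e-05) and 2.13 ± 0.28 (adjusted p = 2.2e-06), with every tumor below every normal array.

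In hippocampus Doc2a was already lower in normal tissue, at 8.21, 8.25, 8.08 and 8.14. GFAP tumors ran from 6.85 to 8.12 with a median of 7.39, NES tumors had 7.41, 8.26, 8.93 and 8.30, and SVZ tumors 6.85, 7.16 and 7.56. The fall in GFAP hippocampus tumors was 0.80 ± 0.25 (adjusted p = 0.0111), with arrays that overlapped, and NES tumors had 0.06 ± 0.28 (adjusted p = 0.932).

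At the active zone, RIM proteins tether vesicles to calcium channels, bassoon (Bsn) and piccolo (Pclo) are large scaffolds, Munc13 proteins (Unc13a, Unc13c) prime vesicles, and Rab3 with rabphilin (Rph3a) guides vesicles to the membrane. All 10 measured members of this group fell in GFAP cortex, SYN1 and SVZ tumors, and 7 of 10 in GFAP hippocampus tumors. Rims1 fell by 2.47 ± 0.49 in GFAP cortex tumors and by 3.46 ± 0.49 in SYN1 tumors, and Pclo had -2.24 ± 0.51 and -3.26 ± 0.51, both called. Rab3a fell by 2.12 ± 0.45 (-1.38 without GFAP tumor 1) and 2.40 ± 0.45, while Rab3c had -2.47 ± 0.62 and -3.52 ± 0.62 and Rph3a -2.58 ± 0.42 and -3.15 ± 0.42, all called.

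Unc13a encodes Munc13-1, the main priming factor of glutamate synapses. Normal cortex had 11.47, 11.32, 11.39 and 11.28, GFAP cortex tumors 7.69, 10.16, 9.26 and 8.93, and SYN1 tumors 7.89, 8.33, 7.79 and 7.94. Normal hippocampus had 11.12, 10.77, 11.04 and 10.93, GFAP tumors 7.5 to 9.63 with a median of 8.37, NES tumors 8.39, 10, 10.30 and 9.82, and SVZ tumors 7.71, 7.77 and 8.76. Every tumor array was below every normal array. The difference was -2.35 ± 0.43 in GFAP cortex, -3.38 ± 0.43 in SYN1, -2.60 ± 0.38 in GFAP hippocampus and -3.08 ± 0.41 in SVZ tumors, and -1.34 ± 0.43 in NES tumors (adjusted p = 0.0498). The NES call was kept in 9 of 16 alternative settings. Of its 3 probe sets, the other 2 also had lower means in each tumor group of cortex and hippocampus.

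Unc13c encodes Munc13-3, best known from cerebellar granule cells, and was the 1 member called higher in NES tumors. Normal hippocampus had 8.19, 8.40, 8.43 and 8.58, and NES tumors 8.74, 9.18, 9.59 and 9.04, all above the normal arrays, a difference of 0.74 ± 0.23 (adjusted p = 0.0468). The call was kept in 6 of 16 alternative settings, with differences from 0.58 to 1.12, and not with arrays centred or quantile normalized. All 6 other probe sets of the gene were higher in NES tumors as well, by 0.74 to 1.49. GFAP hippocampus tumors ran from 7.84 to 8.98 with a median of 8.50 and had 0.05 ± 0.21 (adjusted p = 0.86). In normal cortex the arrays had 9.11, 8.92, 9.19 and 9.09, GFAP tumors 8.02, 9.02, 8.64 and 8.01, and SYN1 tumors 7.94, 8.75, 8.31 and 8.48. SVZ tumors had 7.89, 8.12 and 8.33. These falls were small, 0.65 ± 0.23 in GFAP (adjusted p = 0.0366) and 0.71 ± 0.23 in SYN1 tumors (adjusted p = 0.0168). The GFAP cortex call was kept in 7 of 16 alternative settings, and not without the 4 arrays that stand apart (-0.52, adjusted p = 0.0854).

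Bassoon had 10.57, 10.48, 10.58 and 10.59 in normal cortex, 7.19, 9.30, 8.87 and 8.43 in GFAP cortex tumors and 7.33, 7.85, 7.36 and 7.43 in SYN1 tumors. Normal hippocampus had 10.08, 9.74, 10.11 and 9.91, GFAP tumors 7.17 to 8.61 with a median of 7.71, NES tumors 7.94, 8.98, 9.53 and 9.22, and SVZ tumors 7.37, 7.30 and 8.25. All tumors lay below normal tissue. The fall was 2.11 ± 0.35 in GFAP cortex and 3.06 ± 0.35 in SYN1 tumors, and 2.11 ± 0.31 in GFAP hippocampus tumors (adjusted p = 1.01e-05), while NES tumors had -1.05 ± 0.35 (adjusted p = 0.066).

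Rims2, another large RIM, was called in cortex and not in hippocampus. Normal cortex had 10.22, 10.15, 10.12 and 10.01, GFAP cortex tumors 6.69, 9.60, 8.43 and 8.42, and SYN1 tumors 7.98, 8.12, 6.93 and 7.35, with falls of 1.84 ± 0.41 (adjusted p = 0.00169) and 2.53 ± 0.41 (adjusted p = 2.31e-05). Normal hippocampus had 9.42, 9.24, 9.26 and 9.38, GFAP tumors 7.76 to 9.27 with a median of 8.47, NES tumors 8.37, 9.49, 9.97 and 9.36, and SVZ tumors 7.91, 7.67 and 8.49. In hippocampus neither the GFAP value of -0.89 ± 0.36 (adjusted p = 0.0505) nor the NES value of -0.03 ± 0.41 (adjusted p = 0.979) was called, and arrays overlapped. Without the 4 arrays that stand apart the GFAP hippocampus value was -0.94 and was called (adjusted p = 0.0124). The test of the region difference in the GFAP tumor change gave 0.95 ± 0.55 for Rims2 (adjusted p = 0.576), so the regions were not shown to differ.

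The endocytosis genes encode AP180 (Snap91), which sets vesicle size with clathrin, amphiphysin (Amph), which bends the membrane, and dynamin 1 (Dnm1), which pinches the vesicle off. All 3 fell in GFAP cortex tumors, with differences of -2.13 ± 0.57, -2.23 ± 0.63 and -2.02 ± 0.47, which became -1.26, -1.25 and -1.33 without tumor 1, and in SYN1 tumors, with -2.95 ± 0.57, -3.11 ± 0.63 and -2.58 ± 0.47. In GFAP hippocampus tumors they fell by 1.90 ± 0.51, 2.33 ± 0.56 and 1.92 ± 0.42. In NES tumors Dnm1 had -0.91 ± 0.47 (adjusted p = 0.266), with all 4 tumors below normal hippocampus.

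Of the 2 vesicular glutamate transporters 1 was called. Slc17a7 (VGLUT1), which loads glutamate in cortical and hippocampal excitatory neurons, had 13.04, 12.78, 12.74 and 12.74 in normal cortex, 7.19, 11.51, 11.26 and 10.71 in GFAP cortex tumors and 8.40, 9.71, 8.62 and 9.08 in SYN1 tumors. The difference of -3.87 ± 0.81 in SYN1 tumors (adjusted p = 0.000382) is a 14.7-fold change, and that in GFAP cortex tumors was -2.66 ± 0.81 (adjusted p = 0.0149, and -1.66 without tumor 1). Normal hippocampus had 12.74, 12.41, 12.76 and 12.59, GFAP tumors 7.58 to 12.29 with a median of 9.43, and NES tumors 9.73, 11.73, 11.87 and 11.58. The highest GFAP value, tumor 5, was close to normal tissue, yet all 7 were below it. The difference was -2.82 ± 0.72 (adjusted p = 0.00277), and -3.36 without the 4 arrays that stand apart, and NES tumors had -1.40 ± 0.81 (adjusted p = 0.326). SVZ tumors had 8.46, 8.35 and 10.75, a difference of -3.54 ± 0.78 (adjusted p = 0.000638).

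Slc17a6 (VGLUT2), the transporter of thalamic and other subcortical neurons, was called in no comparison with all arrays. Normal cortex had 8.19, 8.67, 7.96 and 7.94, GFAP cortex tumors 6.64, 7.71, 7.08 and 6.10, and SYN1 tumors 6.68, 8.09, 6.37 and 6.0. All 4 GFAP cortex tumors were below normal cortex, at -1.31 ± 0.62 (adjusted p = 0.127). SYN1 tumors had -1.40 ± 0.62 (adjusted p = 0.0784, and 0.0319 without the 4 arrays that stand apart). Normal hippocampus had 7.99, 8.29, 8.23 and 8.42, GFAP tumors 6.23 to 9.96 with a median of 7.79, NES tumors 8.44, 8.09, 9.49 and 9.89, and SVZ tumors 7.82, 7.21 and 8.02. GFAP hippocampus tumors 2, 5 and 6, at 9.62, 8.56 and 9.96, were above every normal hippocampus array, and the group difference was -0.27 ± 0.55 (adjusted p = 0.721).

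Members differed also between the normal regions. Of 37 members 4 were called (1.29% of all genes in either direction): Rims3 at -1.50 ± 0.31, Stx1a at -1.45 ± 0.27 and Doc2a at -1.14 ± 0.28 were lower in normal hippocampus than in normal cortex, and Doc2b at 2.25 ± 0.34 was higher (adjusted p = 0.0074, 0.00284, 0.0315 and 0.000271). A fit of these 8 arrays alone called 19 members and 13.9% of all genes.

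Doc2b was the member whose difference between tumor and normal tissue depended on the region. Normal cortex had 8.08, 8.03, 8.67 and 8.54, GFAP cortex tumors 8.78, 8.63, 8.55 and 8.32, and SYN1 tumors 8.39, 8.37, 8.64 and 8.28. The cortex groups overlapped, with differences of 0.24 ± 0.34 (adjusted p = 0.668) and 0.09 ± 0.34 (adjusted p = 0.881). Normal hippocampus had 10.76, 10.34, 10.69 and 10.49, GFAP hippocampus tumors 7.05 to 9.34 with a median of 8.21, NES tumors 8.36, 8.53, 10.15 and 8.96, and SVZ tumors 8.0, 7.77 and 7.88. Every hippocampal tumor was below every normal hippocampus array. The fall was 2.54 ± 0.31 in GFAP hippocampus tumors (adjusted p = 6.8e-07) and 1.57 ± 0.34 in NES tumors (adjusted p = 0.00434), the largest of any member there.

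A test of the region dependence of the GFAP tumor change, hippocampus minus cortex, gave -2.79 ± 0.46 for Doc2b (adjusted p = 0.0012), the 1 member called (0.838% of all genes in either direction). It was called in all 27 alternative settings, with values from -3.01 to -2.38. Between the GFAP tumors themselves Doc2b was not called, with means of 8.03 in hippocampus and 8.57 in cortex. The normal means were 10.57 and 8.33. Rims3 had 1.62 ± 0.42 (adjusted p = 0.0613) and Stx1a 1.11 ± 0.36 (adjusted p = 0.178). With the replicate number as a block, Rims3 and Stx1a were called too, 3 members in all, beside 2.72% of all genes.

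**Figure D3:**
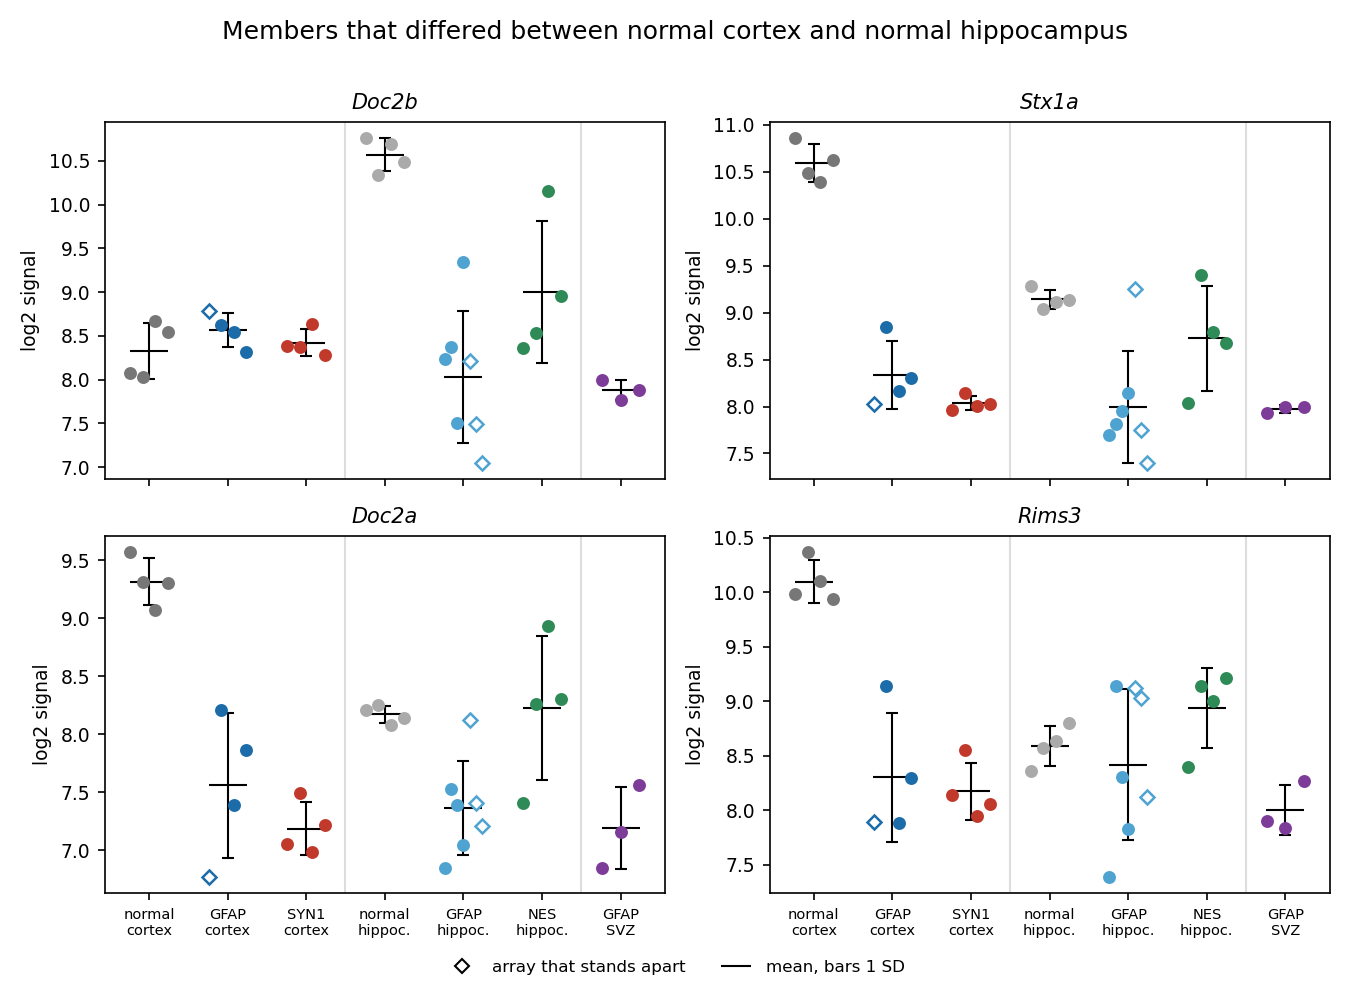
Log2 signal of Doc2b, Stx1a, Doc2a and Rims3, the 4 members called between normal hippocampus and normal cortex, in every array by group with mean and 1 SD. Tumors of both regions overlap for these genes, with hippocampal tumors from 7.05 to 10.15 for Doc2b. The normal tissues stand apart, Doc2b being higher in hippocampus and the other 3 in cortex.

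Stx1a, the syntaxin of the fusion complex, had 10.86, 10.49, 10.39 and 10.62 in normal cortex and 9.28, 9.04, 9.11 and 9.13 in normal hippocampus. GFAP cortex tumors had 8.03, 8.85, 8.16 and 8.30 and SYN1 tumors 7.96, 8.14, 8.01 and 8.03, differences of -2.25 ± 0.27 (adjusted p = 5e-06) and -2.55 ± 0.27 (adjusted p = 2.21e-07). GFAP hippocampus tumors fell by 1.14 ± 0.24 (adjusted p = 0.000494), with tumor 5 at 9.25 among the normal arrays and the other 6 at 8.14 or below. Rims3, a small RIM that lacks the domains binding Rab3 and Munc13, fell by 1.79 ± 0.31 in GFAP cortex tumors (adjusted p = 0.00022) and had -0.17 ± 0.28 in GFAP hippocampus tumors (adjusted p = 0.646).

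Tumors of one region with different promoters were compared directly. SYN1 and GFAP tumors of the cortex differed in 0 of 37 members in limma's test (0.176% of all genes in either direction), and 2 members had an unadjusted p under 0.05. The SYN1 value was the lower for 35 of 37, with a median difference of -0.66 against 0.07 over all genes. The lack of calls rests on GFAP cortex tumor 1. Without it 20 members were lower in SYN1 tumors, and without all 4 arrays that stand apart 25 were (7.77% of all genes lower), with a median of -1.25. Sv2b had -1.27 ± 0.73 with all arrays (adjusted p = 0.417) and -2.36 without the 4 (adjusted p = 0.0101), and Syn1 -0.64 ± 0.59 (adjusted p = 0.652) and -1.54 (adjusted p = 0.0146).

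NES tumors of the hippocampus were higher than GFAP tumors of the hippocampus in 8 members (6.12% of all genes higher). These were Syt5 by 2.31 ± 0.57 (adjusted p = 0.0231), Syn1 by 1.67 ± 0.53 (adjusted p = 0.0492), Unc13a by 1.26 ± 0.38 (adjusted p = 0.0415) and Syn3 by 1.24 ± 0.30 (adjusted p = 0.0216). Bsn was higher by 1.07 ± 0.31 (adjusted p = 0.0383), Doc2b by 0.97 ± 0.31 (adjusted p = 0.0482), Doc2a by 0.86 ± 0.25 (adjusted p = 0.0359) and Unc13c by 0.69 ± 0.21 (adjusted p = 0.0417). For each of the 8 the arrays of both groups overlapped. With arrays centred on their medians 4 were called, after quantile normalization 3, and with only these groups in the fit 0, as for all genes. Centring also turned the calls over all genes from 417 lower and 1220 higher to 1515 lower and 731 higher. All 37 differences lay above 0, with a median of 1.03. The count ranged from 0 to 23 as single arrays were left out: it was 0 without NES tumor 2, 3 or 4 or GFAP tumor 7, 1 without GFAP tumor 6, 2 without GFAP tumor 1, 4 without GFAP tumor 4, 13 without GFAP tumor 2, 14 without GFAP tumor 5 and 23 without NES tumor 1. Without the 4 arrays that stand apart it was 26 (10.4% of all genes higher). The 26 are not named here and need not include all 8.

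Among GFAP tumors, hippocampus and cortex differed in 0 members in limma's test (2.68% of all genes in either direction), and 0 had an unadjusted p under 0.05. With the replicate number as a block, 0 members and 9.80% of all genes were called. Without the 4 arrays that stand apart 5 members were lower in hippocampus (10.5% of all genes in either direction, and 398 of 19938 genes lower): Bsn, Slc17a7, Sv2b, Syt5 and Unc13a. SVZ and cortex differed in 0 (0.00502% of all genes), 1 with an unadjusted p under 0.05, and without the 4 arrays 16 members were lower in SVZ tumors (7.10% of all genes lower). These comparisons share the GFAP cortex tumors.

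**Figure D4:**
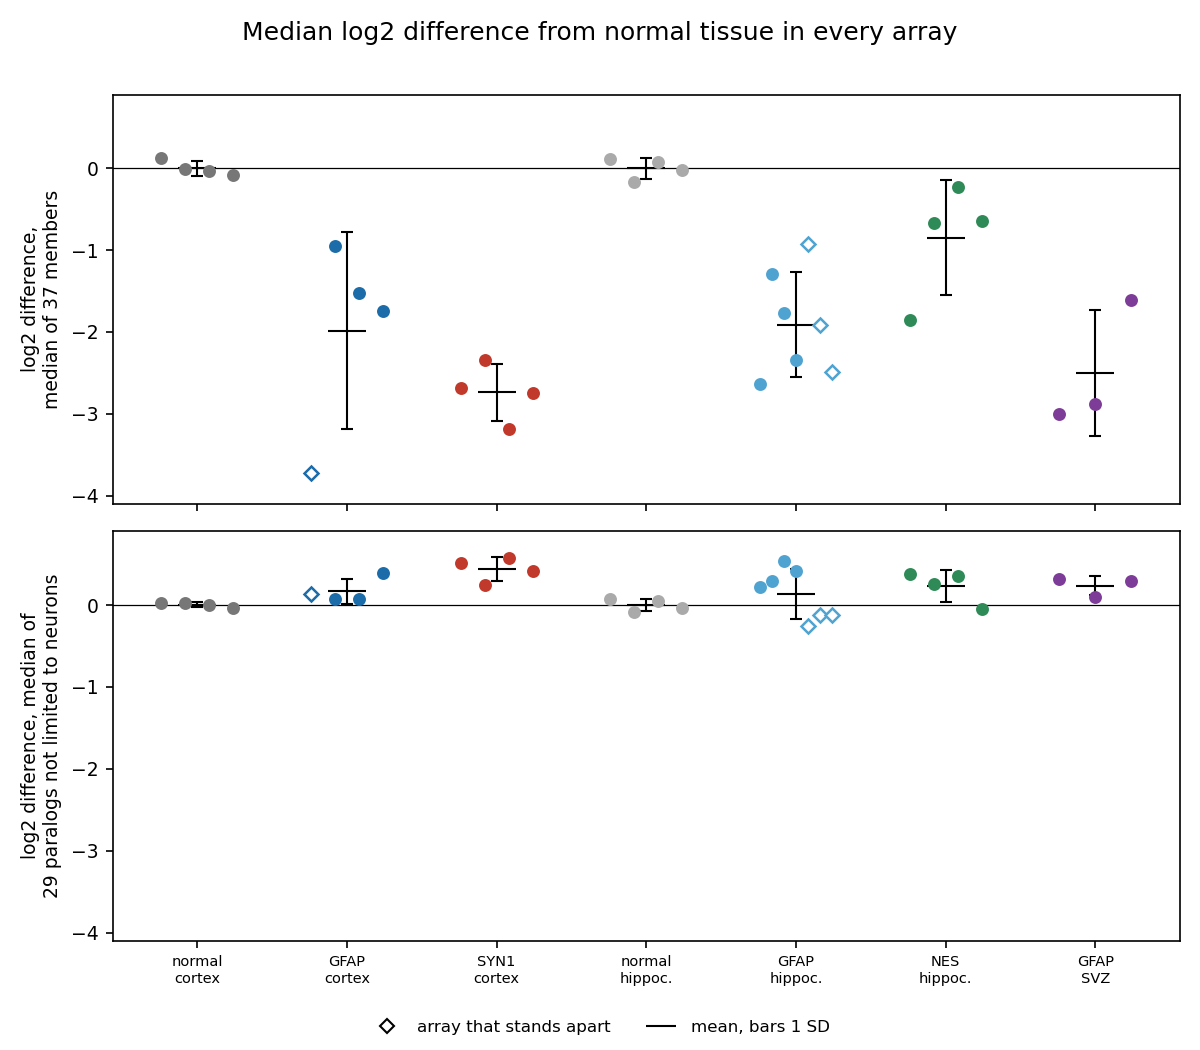
Median log2 difference from the normal tissue of the region in every array (SVZ against the mean of both), above for the 37 members and below for 29 related genes that are not limited to neurons, with group mean and 1 SD. Member medians run from -3.72 in GFAP cortex tumor 1 to -0.23 in NES tumor 3, while the related genes stay between -0.25 and 0.58.

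The members were also summarised array by array. The median difference over the 37 was -3.72 in GFAP cortex tumor 1 and -0.95, -1.53 and -1.75 in tumors 2 to 4. SYN1 tumors were closer to each other, from -3.19 to -2.34. GFAP hippocampus tumors ran from -2.64 in tumor 1 to -0.92 in tumor 5, and SVZ tumors had -3.00, -2.88 and -1.61. Of the NES tumors, tumor 1 had -1.86 and the others -0.67, -0.23 and -0.64, so the NES group held 1 array within the range of the GFAP hippocampus tumors and 3 above all 7 of them. The neuron markers had medians of -1.48 in NES tumor 1 and of -0.46, -0.09 and -0.58 in the others. In normal arrays the member median lay between -0.17 and 0.13.

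Other genes of the release pathway were read from a list of further presynaptic genes. Of 35 further presynaptic genes, 31 fell in GFAP cortex, 32 in SYN1, 30 in GFAP hippocampus, 3 in NES and 33 in SVZ tumors, and none rose. Their medians were -1.61, -2.19, -1.55, -0.68 and -2.09. The shares of all genes that fell in these groups were 18.8%, 20.5%, 25.2%, 2.86% and 21.4%. Napb, the brain form of the NSF adaptor, fell by 2.44 ± 0.68 in GFAP cortex tumors and had -3.45 ± 0.68 in SYN1 tumors, and Sh3gl2 (endophilin A1) had -2.32 ± 0.59 and -3.30 ± 0.59, all called. Syt17 fell by 3.01 ± 0.32 in GFAP hippocampus tumors and, with Ppfia2 and Cadps2, was 1 of the 3 that fell in NES tumors, by 1.88 ± 0.37 (adjusted p = 0.0015).

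Dense core vesicles carry neuropeptides and share SNAREs and priming factors with synaptic vesicles. Of 10 dense core vesicle genes, 7 fell in GFAP cortex, 9 in SYN1, 7 in GFAP hippocampus, 0 in NES and 8 in SVZ tumors. The shares of all genes that fell were 18.8%, 20.5%, 25.2%, 2.86% and 21.4%. Chgb (chromogranin B) had differences of -2.19 ± 0.51, -3.29 ± 0.51, -2.41 ± 0.46 and -2.96 ± 0.49 in the 4 groups with calls.

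Related genes that serve secretion and membrane traffic in many tissues were called in both directions. Of 29, 7 rose and 5 fell in GFAP cortex tumors, 14 rose and 4 fell in SYN1, 8 rose and 3 fell in GFAP hippocampus, 3 rose and 0 fell in NES, and 11 rose and 3 fell in SVZ tumors. Over all 19938 genes 1794, 3627, 3213, 1135 and 3236 rose in these groups, and the shares of the list that fell lay at or below those of all genes given above. Vamp8 (endobrevin), a SNARE of endosomes and of secretion in blood and gland cells, rose by 1.5 ± 0.31 in GFAP cortex, 2.37 ± 0.31 in SYN1, 1.97 ± 0.28 in GFAP hippocampus, 1.47 ± 0.31 in NES and 2.63 ± 0.30 in SVZ tumors (adjusted p of 0.0036 or less). Syngr2, the synaptogyrin found outside neurons, rose by 1.51 ± 0.33, 2.04 ± 0.33, 1.42 ± 0.29, 1.34 ± 0.33 and 2.08 ± 0.31 (adjusted p of 0.0102 or less). Syt11, which is abundant in brain despite its place on this list, fell by 1.95 ± 0.64 in GFAP cortex and 2.17 ± 0.64 in SYN1 tumors. Markers of microglia and macrophages, which express Vamp8, were higher in the same groups: 8, 7, 9, 9 and 8 of 12 rose, and their mean level was 8.29 to 8.61 in normal arrays and 8.88 to 10.58 in tumors. Their part in the rise of these genes was not tested.

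REST represses neuronal genes outside neurons, and Syn1 is a textbook target. Rest rose by 2.02 ± 0.38 in GFAP cortex tumors (adjusted p = 0.000407), 2.79 ± 0.38 in SYN1 (adjusted p = 3.14e-06), 1.70 ± 0.34 in GFAP hippocampus (adjusted p = 0.000257), 1.28 ± 0.38 in NES (adjusted p = 0.0322) and 2.61 ± 0.36 in SVZ tumors (adjusted p = 5.3e-06). Rest values ran from 7.08 to 7.41 in normal cortex and from 7.45 to 7.84 in normal hippocampus. GFAP cortex tumors had 8.84 to 9.7, SYN1 tumors 9.76 to 10.21, NES tumors 8.39 to 9.81 and SVZ tumors 9.75 to 10.28. GFAP hippocampus tumors had 7.54 to 10.08, and the lowest of them lay within the normal hippocampus range. The NES call was kept in 11 of 16 alternative settings. Of the 13 genes in the list of REST and neuronal regulators, 9 fell in each of the 4 other groups and 3 in NES tumors. Of all genes 18.8% fell in GFAP cortex, 20.5% in SYN1, 25.2% in GFAP hippocampus, 2.86% in NES and 21.4% in SVZ tumors. Among the regulators that fell was Neurod1, a neuronal differentiation factor, by 1.87 ± 0.26 in NES tumors (adjusted p = 3.97e-05). Ptbp1, a splicing repressor of neuronal exons, rose by between 1.36 ± 0.40 in NES tumors and 2.22 ± 0.38 in SVZ tumors. Whether these regulators bear on the members' values was not tested.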

How the data were processed

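Per the labels, Trizol extraction was followed by Ambion WT labelling. The authors deposited log2 signal from Mouse Gene 1.0 ST arrays (Affymetrix). Tools listed in the submitters' processing notes are RMA, MAS5 and Affymetrix Power Tools, and how arrays were normalized to each other is not given in the sources used here. Of 35556 probe sets, 21789 named 1 gene, 1621 several and 12146 none, and 21698 matched RefSeq (GRCm38.p6). The values were used as deposited.

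A linear model with a mean for each of the 7 groups was fitted by limma (3.58.1, under R 4.3.3) over the 30 arrays, with Benjamini-Hochberg adjustment over 19938 genes in each of 11 comparisons. The number of arrays limits the precision. Members and gene lists were chosen with earlier results of these data known. Values in every array are given for Syn1, for members with the largest or smallest difference in a comparison with normal tissue and for those called between tumor groups, and for a few others picked after their values were seen. From other lists, named genes are among the 3 largest differences in a direction, with values in further groups beside them. Syt11 and Gap43 were singled out after their values were seen where they fall outside this rule.

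Equal replicate numbers in GFAP cortex and hippocampus tumors deviated together (r of 0.277 to 0.306 in 4 of 4 pairs), which the labels do not explain. Only 2 of these 4 hippocampus tumors correlated best with the cortex tumor of their own number. Equal numbers ran from -0.362 to 0.379 between SYN1 and GFAP cortex tumors and from -0.394 to 0.565 between NES and GFAP hippocampus tumors. The fit has no block, and values with the number as a block are given where it moves a result. GFAP hippocampus tumors 5 to 7 have no partner. The alternatives were other scalings, a filter on dim genes, mean of probe sets, other variance settings, fewer arrays and the replicate number as a block.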

Additional observations from a re-analysis of the deposited data

Results flagged for a closer look

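Of 222 pairs of a member and a group of 4 to 7 arrays, 15 (6.76%) had 1 array far from the rest by Dixon's test at the 95% level, and chance alone flags about 1 in 20. GFAP cortex tumor 1 was the lowest for Sv2b (6.75, others 10.77 to 11.58), Syt1 (7.28, others 11.67 to 12.41) and Syt5 (7.53, others 10.94 to 11.61). NES tumor 1 was the lowest for Slc17a7 (9.73, others 11.58 to 11.87), Cplx1 (9.63, others 11.25 to 11.51), Rph3a (8.67, others 10.05 to 10.08) and Syt2 (7.28, others 8.37 to 8.58). GFAP hippocampus tumor 5 was the highest for Stx1a (9.25, others 7.40 to 8.14) and Cplx2 (9.60, others 7.57 to 8.43). SYN1 tumor 2 was the highest for Syt2 (7.47, others 6.95 to 7.01).

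In normal cortex the gaps were small in size. Array 1 was the highest for Slc17a7 (13.04, others 12.74 to 12.78), Amph (11.79, others 11.45 to 11.51) and Syt7 (10.47, others 10.29 to 10.31). Array 2 was the lowest for Synpr (8.80, others 9.05 to 9.09) and Bsn (10.48, others 10.57 to 10.59).

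The GFAP tumor change of Doc2b differed between regions: the test of the difference, hippocampus minus cortex, gave -2.79 ± 0.46 (adjusted p = 0.0012 in the limma fit), with a fall in hippocampus and no call in cortex. The normal means were 10.57 in hippocampus and 8.33 in cortex, and the GFAP tumor means 8.03 and 8.57.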

How the results depend on the processing

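Of 146 calls of a member in a comparison, 0 reversed under any alternative and 27 were lost under at least 1. Leaving out the 4 arrays that stand apart lost 3 of the 146. In the NES comparison with normal hippocampus, 4 members were called, and 10 both without the 4 arrays that stand apart and with only the groups compared. In NES against GFAP hippocampus tumors, 8 became 4 with centred arrays, 3 with quantile normalization, 13 with the replicate block, 26 without the 4 arrays and 0 with only the groups compared. Without the 4 arrays, counts of 0 became 25 for SYN1 against GFAP cortex tumors, 5 for GFAP hippocampus against cortex and 16 for SVZ against cortex. Normal hippocampus against normal cortex gave 4, and 19 with only the groups compared. The region dependence gave 1, and 2 with centred arrays and 3 with the replicate block. For NES tumors against normal tissue the block gave 6, and it moved the count of members by no more than 1.5 times in the remaining comparisons. Over all genes it raised the calls from 35 to 105 lower and 845 higher for SYN1 against GFAP cortex tumors, from 534 to 1954 for GFAP hippocampus against cortex, from 1 to 26 lower and 97 higher for SVZ against cortex and from 167 to 542 for the region dependence. The causes were not tested.

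Leaving out 1 array at a time gave 25 to 34 members for GFAP cortex tumors (25 without GFAP cortex tumor 1), 32 to 33 for SYN1, 29 to 31 for GFAP hippocampus, 1 to 5 for NES and 33 to 35 for SVZ tumors against normal tissue. It gave 0 to 20 for SYN1 against GFAP, 0 to 23 for NES against GFAP, 0 to 3 for GFAP hippocampus against cortex, 0 to 2 for SVZ against cortex, 3 to 4 for the normal regions and 1 to 2 for the region dependence. Over all genes, GFAP cortex tumors had 3742 lower and 1794 higher calls, and 3255 and 2831 after quantile normalization. NES against GFAP tumors had 417 lower and 1220 higher, 1515 and 731 with centred arrays, and 1267 and 883 after quantile normalization.

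No background signal was measured, and groups hold 3 to 7 arrays. Under the replicate block Syn1 was not called between NES and GFAP hippocampus tumors, although the numbers of these groups share nothing in the labels.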
